A study of Danio rerio with 4 samples.

Results

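The autophagy genes of the atg series were examined in whole zebrafish embryos that express the leukaemia fusion gene NUP98-HOXA9. Members were all genes whose symbol is atg followed by a number, in the array's probe annotation or in RefSeq's current naming, and 10 of 9665 named genes met this, with 16 of 20406 probes. NHA9 embryos came from fish carrying Tg(spi1::lox-eGFP-lox::NHA9) mated to fish carrying Tg(hsp70::Cre), so that heat shock lets Cre cut out the eGFP cassette and the spi1 promoter, active in myeloid blood cells, drives the fusion. The lGl embryos carried the same floxed transgene from a cross to wild-type AB fish, had no Cre, and kept the cassette. Both kinds were heat-shocked at 37 °C for 1 hour at 24 hours post-fertilization, held at 28 °C and extracted at 28 hours post-fertilization, 4 hours after the heat shock. Each kind gave 2 RNA extracts, numbered as replicates 1 and 2, and the extracts of a replicate were set against each other on a forward array (NHA9 in Cy5) and on a dye swap, 4 arrays of 2 colours in all. The labels call the extracts biological replicates and do not say how many embryos or clutches each holds. The p-values therefore measure only the spread between these extracts, which the main test pooled over all items. Cre, the second parent and the active fusion differ together between the crosses, and their effects cannot be told apart.

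Autophagy encloses cytoplasm, damaged organelles or protein aggregates in a double membrane, the autophagosome, and delivers them to the lysosome for breakdown. The Atg proteins act in order: a kinase complex with Atg13 and Atg101 starts the process, the lipid kinase complex that Atg14 directs marks the membrane with phosphatidylinositol 3-phosphate, and a pair of ubiquitin-like conjugation systems attaches Atg8-family proteins to the growing membrane. In blood, autophagy is known for clearing mitochondria from maturing red cells and for its part in the upkeep of stem cells and phagocytes.

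Values are the authors' deposited log ratios, read as log2 of NHA9 over lGl. No source used here gives the log base or the direction. For the forward arrays NHA9 over lGl is the likely direction, going by their titles and dyes. The dye swaps have lGl first in their titles and in Cy5, so titles and dyes alone would give them the opposite direction. Were the direction of all columns the reverse of that taken here, all signs would turn. As deposited, the forward array and the dye swap of a replicate ran the same way over all probes (Pearson r = 0.747 in replicate 1 and 0.465 in replicate 2, probes not being independent), so the account takes every column as NHA9 over lGl, and values for the other reading, by dye, follow after the members. Between the replicates r was 0.449 for the forward arrays and 0.387 for the dye swaps. For a forward array against the dye swap of the other replicate it was 0.112 and 0.1085. A ratio says nothing of a gene's level, so the tissue could not be checked against its defining markers. In RNA from whole embryos, fewer cells of a type and less RNA per cell cannot be told apart. The arrays' spot intensities were not used here, and the 2 pairs of extracts limit the precision.

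The atg14 gene stood far above the rest of the family. Its product is the subunit that brings the class III phosphatidylinositol 3-kinase complex to the site where autophagosomes form. Its ratio was 3.99 on the forward array and 3.32 on the dye swap of replicate 1, and 2.92 on the forward array and 1.95 on the dye swap of replicate 2. All 4 values were positive, the values of replicate 1 were higher than those of replicate 2, and the forward array was higher than the dye swap in each replicate. The mean was 3.04 ± 0.86 (SD, n = 2), with 3.66 in replicate 1 and 2.43 in replicate 2, and it ranked 5 among named genes counted from the highest. The family was chosen by this ratio, so it is given as a description with no test. It rests on 1 probe, which the platform annotation calls zgc:113944 and which RefSeq's accession pairs with atg14.

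**Figure D1:**
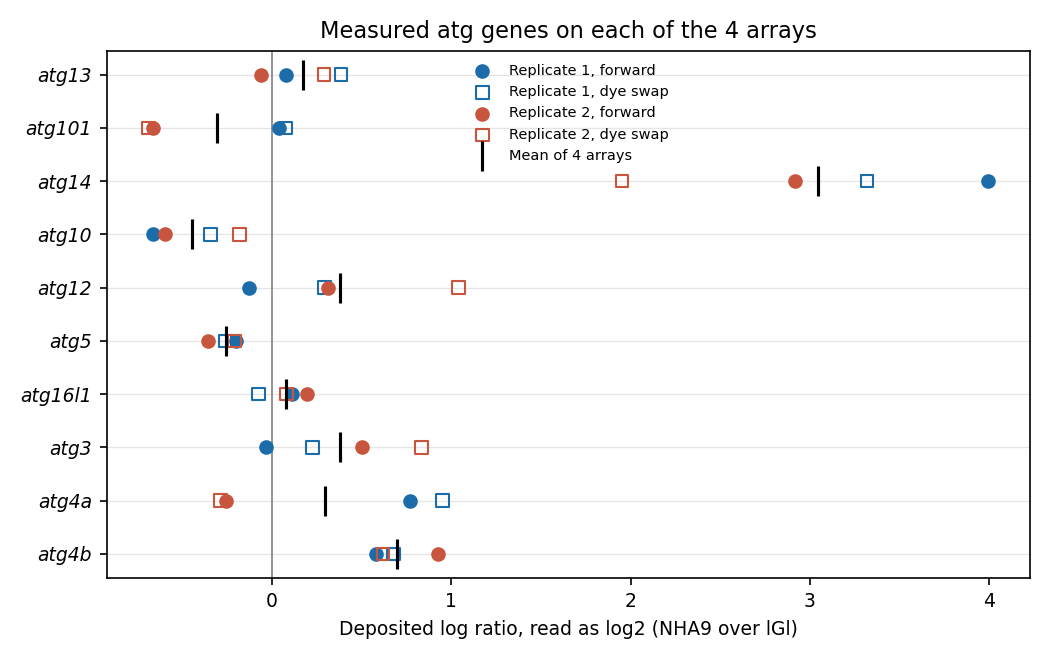
Log2 ratio of NHA9 over lGl (horizontal axis) of the 10 measured atg genes (rows) on each of the 4 arrays. Filled circles are forward arrays and open squares dye swaps, blue is replicate 1 and red replicate 2, and the black bar is the mean of the 4 arrays. The 4 values of atg14 lie between 1.95 and 3.99, while those of the other 9 genes lie within −0.69 and 1.04.

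The measured genes of the initiation kinase complex, atg13 and atg101, did not pass the test. Atg13 is the regulatory partner of the Ulk1 kinase, and Atg101 binds and stabilises Atg13. The ratio of atg13 was 0.08 and 0.39 on the forward array and dye swap of replicate 1, and −0.06 and 0.29 on those of replicate 2. Its mean was 0.17 ± 0.08 (SD, n = 2; 95% interval −0.42 to 0.76; limma adjusted p = 0.947). The dye swaps were thus higher than the forward arrays, and the replicates lay close together at 0.23 and 0.11. The ratio of atg101 was 0.04 and 0.08 on the forward array and dye swap of replicate 1, but −0.66 and −0.69 on those of replicate 2. It was near 0 in replicate 1 and lower in replicate 2 on either orientation, with a mean of −0.31 ± 0.52 (interval −0.90 to 0.28; limma adjusted p = 0.852, n = 2). These intervals and those below come from limma, which estimated infinite prior degrees of freedom, so that all genes share a standard error of 0.30 and an interval of 0.59 on either side of the mean, not adjusted for the number of genes.

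Of the system that joins Atg12 to Atg5, 4 genes were measured and none passed. Atg12 is the ubiquitin-like protein itself, Atg10 the E2-like enzyme that transfers it, Atg5 its acceptor, and Atg16l1 the scaffold that places the conjugate on the membrane. The ratio of atg12 was −0.13 and 0.29 on the forward array and dye swap of replicate 1, and 0.31 and 1.04 on those of replicate 2. It was higher on the dye swap than on the forward array in each replicate and higher in replicate 2, with a mean of 0.38 ± 0.42 (SD, n = 2; interval −0.21 to 0.97; limma adjusted p = 0.785). The ratio of atg10 was negative on all 4 arrays, at −0.66 and −0.34 on the forward array and dye swap of replicate 1 and −0.60 and −0.18 on those of replicate 2. It had the lowest mean of the family, −0.45 ± 0.08 (interval −1.04 to 0.14; limma adjusted p = 0.708, n = 2).

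The acceptor gene atg5, with 3 probes, was also negative on all 4 arrays. It stood at −0.20 and −0.26 on the forward array and dye swap of replicate 1, and at −0.36 and −0.21 on those of replicate 2. Its mean was −0.26 ± 0.04, the smallest SD of the 10 genes (n = 2; interval −0.85 to 0.33; limma adjusted p = 0.891). Single probes of atg5 had means of −0.35, −0.21 and −0.22, but 2 of the 3 also had a value above 0 on an array. The scaffold gene atg16l1 was closest to 0, at 0.11 and −0.08 on the forward array and dye swap of replicate 1 and 0.19 and 0.08 on those of replicate 2. Its mean was 0.08 ± 0.08 (interval −0.51 to 0.67; limma adjusted p = 0.978, n = 2), and its probes differed in sign, with means of −0.07 and 0.22.

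The genes that act on Atg8-family proteins had positive means, none past the threshold. Atg3 is the E2-like enzyme that attaches Atg8 proteins to membrane lipid, and Atg4a and Atg4b are cysteine proteases that ready Atg8 proteins for this and release them again. The ratio of atg3 was −0.03 and 0.23 on the forward array and dye swap of replicate 1, and 0.50 and 0.83 on those of replicate 2. Replicate 2 was thus the higher, and the mean was 0.38 ± 0.40 (SD, n = 2; interval −0.21 to 0.97; limma adjusted p = 0.783), with means of 0.28 and 0.48 for its 2 probes. Over the 4 arrays atg3 and atg12 were the closest pair of the family, at a Euclidean distance of 0.30.

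The protease gene atg4a changed sign between the replicates. It stood at 0.77 and 0.95 on the forward array and dye swap of replicate 1, but at −0.25 and −0.29 on those of replicate 2. Its replicate means of 0.86 and −0.27 lay farther apart than those of 94.6% of all items, and its 2 probes had like means of 0.28 and 0.31. The mean of 0.29 ± 0.80 therefore stands for neither replicate (interval −0.29 to 0.88; limma adjusted p = 0.864, n = 2).

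Apart from atg14, atg4b had the highest mean. Its ratio was 0.58 and 0.68 on the forward array and dye swap of replicate 1, and 0.92 and 0.62 on those of replicate 2. All 4 values were positive and the replicates were close, with a mean of 0.70 ± 0.10 (SD, n = 2). The 95% interval of 0.11 to 1.29 lay above 0, but the gene did not pass among all items tested (limma adjusted p = 0.294). Its 2 probes differed: 1 stood at 1.02, 0.93, 1.52 and 0.93 on the forward array and dye swap of replicate 1 and of replicate 2, with a mean of 1.1, and the other at 0.13, 0.43, 0.33 and 0.31, with a mean of 0.30. With each probe tested by itself, the higher probe passed (limma adjusted p = 0.0207) and the other did not (adjusted p = 0.853), where 2.48% of all probes passed.

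**Figure D2:**
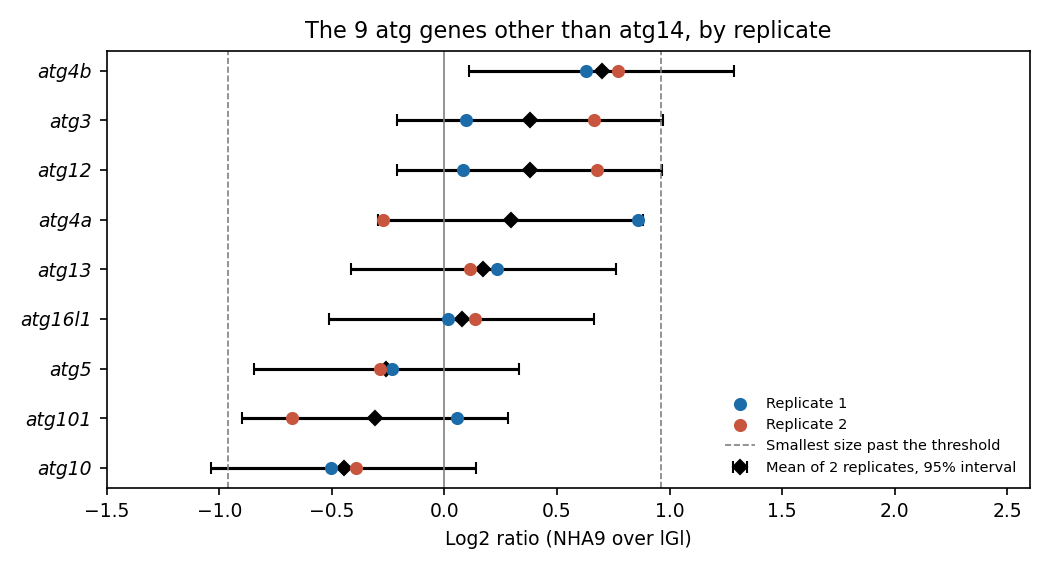
Log2 ratio of NHA9 over lGl (horizontal axis) of the 9 atg genes other than atg14 (rows). Blue and red points are replicates 1 and 2, diamonds their mean with its 95% interval from limma, and dashed lines the smallest size past the threshold, 0.96. No mean reaches the dashed lines, and atg4a and atg101 have the replicates on opposite sides of 0.

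Of the 10 genes, 1 passed an adjusted p of 0.05 in limma, where 2.84% of the 13261 items tested passed (9665 named genes with probes averaged and 3596 unnamed probes). That gene was atg14, whose ratio chose the family, so nothing is read from the count. Of the other 9, 0 passed, and 1, atg4b, had an unadjusted p under 0.05, as did 10.4% of all items. Their means had a median of 0.17, against 0.02 over all items tested. One sign on all 4 arrays was seen for 4 of the 10, atg14 and atg4b above 0 and atg10 and atg5 below, where 32.6% of all items had one sign, 19.4% above 0 and 13.2% below. In descending order the means ran atg14, atg4b, atg3, atg12, atg4a, atg13, atg16l1, atg5, atg101 and atg10. Among the 9 genes after atg14, the intervals of any 2 neighbours in this order overlapped. The smallest mean past the threshold over all items was 0.96 in size, so a smaller mean in any of the 9 genes could not pass with 2 replicates.

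If the columns are read by dye, so that the dye swaps are turned, the ratio becomes the forward minus the dye-swap value divided by 2. In that reading atg14 was at 0.41, and atg12 became −0.29 (limma adjusted p = 0.0355, n = 2). Of the 9 genes other than atg14, atg12 was the 1 past the threshold there, where 15.0% of all items passed. The signs of atg3 (−0.15), atg13 (−0.16) and atg4a (−0.04) also turned, while atg10 stayed below 0 (−0.18; limma adjusted p = 0.152) and atg4b was at 0.05.

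The listed genes of the class III phosphatidylinositol 3-kinase complexes, the Atg14 form and the UVRAG form together, had means from −0.60 to 0.33. Of 7 measured, 6 had positive means, where 52.5% of all items did, and 0 passed in limma, where 2.84% did. An unadjusted p under 0.05 was seen for 1 of the 7, beside 10.4% of all items. The list median was 0.13. becn1, the scaffold subunit beclin 1, was at 0.19 and 0.30 on the forward array and dye swap of replicate 1 and 0.48 and 0.35 on those of replicate 2, a mean of 0.33 ± 0.12 (SD, n = 2). pik3r4, the regulatory subunit Vps15, averaged 0.12 ± 0.01 over 3 probes. The catalytic subunit gene pik3c3 and the regulator gene nrbf2b, named after their values were seen because both belong to the Atg14 complex, averaged 0.13 and 0.05. The gene with the unadjusted p was sh3glb1b, which encodes an endophilin B that binds the UVRAG form of the complex in mammals. It was at −0.19 in replicate 1 and −1.01 in replicate 2, a mean of −0.60 (limma adjusted p = 0.465, n = 2). The listed gene sh3glb1a, named after its value was seen, went the other way. It was at 0.01 in replicate 1 and 0.64 in replicate 2, a mean of 0.33 (limma adjusted p = 0.829, n = 2).

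In the list of the initiation kinase, phosphatidylinositol 3-phosphate effectors and phagophore membrane genes, 9 were measured. In limma 0 passed, where 2.84% of all items did, and 0 had an unadjusted p under 0.05, where 10.4% did. The median was 0.04. ulk3, a kinase of the Ulk family, was the member with one sign on all arrays, at −0.38 ± 0.08 (SD, n = 2). Of 16 Atg8-family and cargo receptor genes 0 passed, 1 had an unadjusted p under 0.05, beside 10.4% of all items, and the median was 0.10. The gene with the unadjusted p was pink1, named after its value was seen. It encodes a kinase and, though listed here, is neither an Atg8-family nor a cargo receptor gene. It was at 0.02 in replicate 1 and −1.48 in replicate 2, a mean of −0.73 (limma adjusted p = 0.248, n = 2). tax1bp1b, a ubiquitin-binding cargo receptor, was at 0.52 ± 0.42, with 0.23 in replicate 1 and 0.81 in replicate 2. The ubiquitin-binding adaptor gene tollip was at −0.54 ± 0.32 and fundc2, of the mitochondrial outer membrane, at −0.54 ± 0.22.

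Of 30 nutrient and transcriptional regulators of autophagy, 21 had positive means and 0 passed in limma, with 5 at an unadjusted p under 0.05 (4 above 0 and 1 below) and a median of 0.17. Over all items the shares were 52.5% with positive means, 2.84% past the threshold and 10.4% at an unadjusted p under 0.05. ddit4, a stress-induced inhibitor of the mTORC1 kinase complex, was at −1.15 and −0.66 on the forward array and dye swap of replicate 1 and −1.07 and −0.30 on those of replicate 2. Its mean was −0.80 ± 0.16 (limma adjusted p = 0.166, n = 2). sesn3, a sestrin that restrains mTORC1 when amino acids are scarce, was at 0.27 in replicate 1 and 1.16 in replicate 2, a mean of 0.72 ± 0.63 (limma adjusted p = 0.271). The transcription factor gene foxo3b, of a family that switches on autophagy genes in mammals, was at 0.34 and 1.01 in the replicates, a mean of 0.68 ± 0.47 (limma adjusted p = 0.334). Both of these were lower in replicate 1 than in replicate 2.

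For fusion of autophagosomes with lysosomes, 9 genes were measured and 7 had positive means, where 52.5% of all items did. In limma 0 passed and 0 had an unadjusted p under 0.05, where 2.84% and 10.4% of all items did. The median was 0.25. The highest with one sign on all arrays were plekhm1, an adaptor between Rab7 and the tethering complex, at 0.56 ± 0.24, and the tethering complex genes vps11 at 0.55 ± 0.58 and vps18 at 0.40 ± 0.26 (SD, n = 2). Of 43 lysosome genes, 1 was higher, 0 were lower and 42 did not pass, where 2.04% of all items were higher and 0.792% lower. Their median was 0.16 (0.25 in replicate 1 and 0.05 in replicate 2). The called gene was atp6v1ab, a catalytic subunit of the proton pump that acidifies the lysosome. It stood at 1.39 and 1.45 on the forward array and dye swap of replicate 1, and at 0.80 and 0.89 on those of replicate 2. All were positive, replicate 1 was the higher, and the mean was 1.13 ± 0.41 (limma adjusted p = 0.0091, n = 2). With the replicate as a random block and no dye term it did not pass (limma adjusted p = 0.0652), and read by dye it was at −0.03. It rests on 1 probe. The listed gene atp6v1aa, named after its value was seen, was at 0.42 in replicate 1 and −0.25 in replicate 2. Its mean was 0.09 (limma adjusted p = 0.976, n = 2).

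Of the other lysosome genes, 11 were positive and 3 negative on all 4 arrays, as were 19.4% and 13.2% of all items. The largest in size were psap, the prosaposin gene, at −0.84 ± 0.03 (limma adjusted p = 0.126, n = 2), and galns, a sulphatase gene, at 0.70 ± 0.40 (limma adjusted p = 0.299). In the 6 autophagy and lysosome lists together, 114 of 188 listed genes were measured and 1 passed, beside 2.84% of all items. Their median was 0.15, with 0.16 in replicate 1 and 0.09 in replicate 2.

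**Figure D3:**
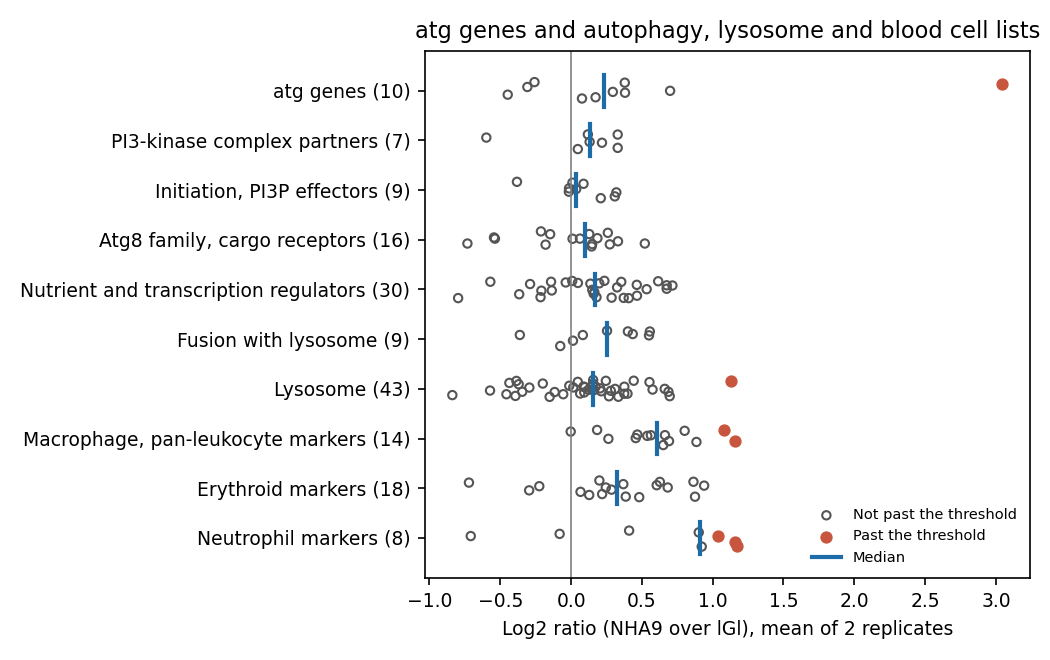
Mean log2 ratio of NHA9 over lGl (horizontal axis) of each measured gene in 10 lists (rows, number of genes in brackets). Filled red points passed an adjusted p of 0.05 in limma, open points did not, and blue bars are list medians. atg14 stands apart at 3.04, and in the autophagy and lysosome lists atp6v1ab at 1.13 is the gene past the threshold.

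Some markers of white blood cells were higher in the same comparison. Of 14 measured macrophage and pan-leukocyte markers 2 were higher and 0 were lower, where 2.04% of all items were higher and 0.792% lower. In all, 13 were positive on all 4 arrays, where 19.4% of all items were. The list median was 0.61, against 0.02 over all items, and means went up to 1.16. The called genes, mpeg1.1 of macrophages and the transporter gene slc7a7, averaged 1.08 ± 0.17 (limma adjusted p = 0.0158, n = 2) and 1.16 ± 0.75 (limma adjusted p = 0.0064). fcer1gl, a signalling chain of immune receptors, was at 0.89. Of 8 neutrophil markers 3 were higher, as were 2.04% of all items, and 5 did not pass. The median of these markers was 0.91, but 1.25 in replicate 1 and 0.41 in replicate 2. The 3 higher genes were mpx, the myeloperoxidase gene, at 1.04, the lysozyme gene lyz at 1.16 and the collagenase gene mmp13a at 1.18. The mean of mmp13a joins 1.84 in replicate 1 and 0.51 in replicate 2. Of those not past the threshold, cebp1, named with cxcr4b after their values were seen, was at −0.71 with an unadjusted p under 0.05, and cxcr4b was at −0.08. lyz was at 1.83 on forward arrays and at 0.48 on dye swaps, where it did not pass (limma adjusted p = 0.559). On the dye swap of replicate 2 it was at 0.03. slc7a7 did not pass on dye swaps either (0.71; adjusted p = 0.244 in limma), nor mpx on forward arrays (0.97; limma adjusted p = 0.0559). After scaling the arrays to 1 spread, slc7a7, mpx and mmp13a did not pass (limma adjusted p of 0.0602, 0.0545 and 0.0508). With the replicate as a random block and no dye term, none of the 5 passed (limma adjusted p of 0.0761 for mpeg1.1, 0.303 for slc7a7, 0.0962 for mpx, 0.404 for lyz and 0.188 for mmp13a). With a dye term in that fit, mmp13a again did not pass (limma adjusted p = 0.0521), while the others did. Read by dye, mpeg1.1 (0.12), mpx (−0.06) and mmp13a (−0.10) did not pass. In that reading slc7a7 (0.45) and lyz (0.67) passed, where 15.0% of all items did.

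Of 18 erythroid markers 0 passed in limma, where 2.84% of all items did. An unadjusted p under 0.05 was seen for 7, 6 above 0 and 1 below, beside 10.4% of all items. The list median was 0.33, with 0.53 in replicate 1 and 0.09 in replicate 2. Of the 18 means, 15 were positive, where 52.5% of all items had a positive mean. The highest were nt5c2l1 at 0.94, hmbsb, a haem synthesis gene, at 0.88 and epb41b, a membrane skeleton gene of red cells, at 0.86. The following were named after their values were seen. The gene below 0 with the unadjusted p was the globin gene hbae3, at −0.72, and fech was at −0.30 and blvrb at −0.22. The globin genes hbae1.1, hbbe1.1 and hbbe3 were above 0 on forward arrays and below 0 on dye swaps. The globin gene hbbe2, at 0.63, was positive on every array. Ratios hold no summed marker levels, and the part of any of these cell types in the ratios of atg14 or atp6v1ab was not tested.

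The 5 named genes nearest to atg14 over the 4 arrays ranked between 3 and 8 among named genes counted from the highest ratio. The nearest was si:ch211-191j22.3 at a Euclidean distance of 0.31, with 4.07 and 3.50 on the forward array and dye swap of replicate 1 and 2.99 and 2.18 on those of replicate 2. Next was cd36, the fatty acid receptor gene, at a distance of 0.48, with 3.84, 3.49, 2.57 and 2.21 on the same arrays in that order. Both thus had the order seen in atg14, with replicate 1 above replicate 2 and the forward array above the dye swap. Such a like order and the high ranks follow from choosing genes by their closeness to atg14 on these same values. isca1, of iron-sulphur cluster assembly, lay at a distance of 1.05, LOC100002392 at 1.07 and cyp11a1.1, the side-chain cleavage enzyme of steroid synthesis, at 1.26. These distances describe 4 arrays that share 2 pairs of extracts.

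The ratios of the genes beside atg14 on its chromosome are given as a description. atg14 ranked 5 among named genes, so few genes anywhere on the array had a like ratio. The 5 nearest measured genes on either side were taken in the gene order of RefSeq assembly GRCz12tu. In limma 0 of them passed, where 2.84% of all items did, and their means lay between −0.22 and 0.43. None reached the size of 0.59 that an unadjusted p under 0.05 needs, a p that 10.4% of all items had. fbxo34, an F-box gene and the very next gene, was at 0.44 and 0.32 on the forward array and dye swap of replicate 1 and −0.27 and −0.46 on those of replicate 2, a mean of 0.01. On the other side jmjd7, a JmjC domain gene, had a mean of −0.02, with 2 unmeasured genes between it and atg14. Farther out, mgaa was at 0.36, foxa1 at −0.18, sstr1a at 0.28 and clec14a at 0.43 on that side, and lgals3b at 0.19, dact1 at −0.19, irf2bpl at −0.22 and timm9 at 0.10 on the side of fbxo34.

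**Figure D4:**
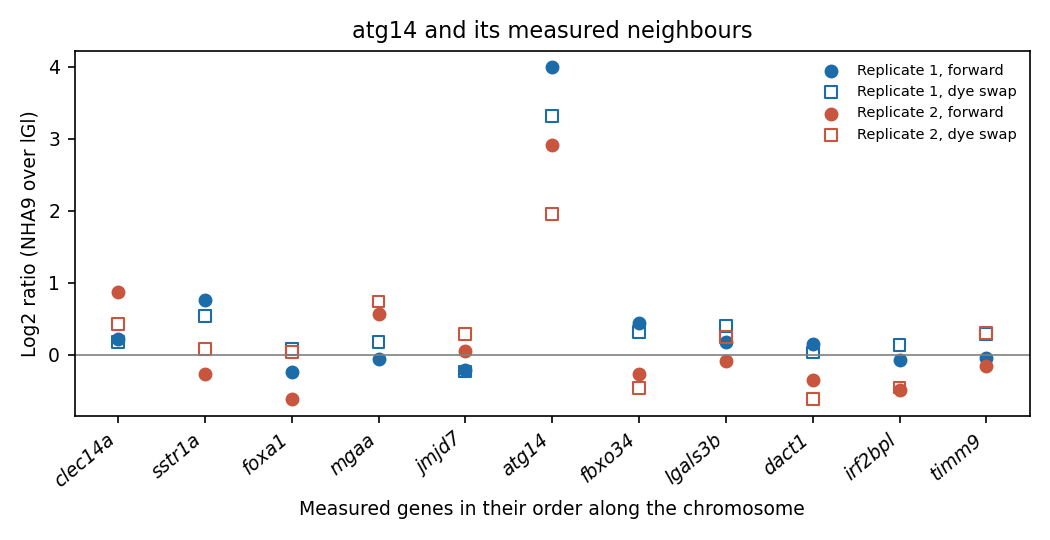
Log2 ratio of NHA9 over lGl (vertical axis) of atg14 and the 5 nearest measured genes on each side, in their order along the chromosome (horizontal axis, not to scale). Symbols are as in the plot of atg genes by array. All 4 values of atg14 are above 1.9, and no value of a neighbour reaches 0.9.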

How the data were processed

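The deposited table gives the authors' log ratio of the 2 channels of each of 4 arrays, taken as log2 from its range (−7.98 to 6.75). A natural log is not excluded, and no source used here gives the background correction, normalization, probe filter or direction. RNA from Trizol and RNeasy purification was labelled directly with dyes, and amplified where scarce, per the labels' protocols. Column medians lay between −0.01 and 0.03. Of 20406 probes, 14620 were named through RefSeq accessions, 1676 by current symbol, 506 by synonym and 8 by the platform symbol. Probes of a gene were averaged. RefSeq's table for GRCz12tu served only for names and gene order, and 9 of its 19 atg genes (atg2a, atg2b, atg4c, atg4da, atg4db, atg7, atg9a, atg9b, atg16l2) were not analysed here.

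A forward array and its dye swap hold the same 2 extracts and were averaged, so n = 2. limma 3.58.1 (R 4.3.3) tested the mean of the replicates against 0 over 13261 items, calling items at a Benjamini-Hochberg adjusted p under 0.05, with a pooled SD of 0.43. The script was tested on simulated data. The replicate numbers pair arrays of the same extracts. The blocked fits used all 4 arrays with the replicate as a random block, at a correlation of 0.49 estimated without a dye term, since it could not be estimated with one.

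The members and gene lists were chosen with earlier results of these data known. From each list the text names the genes past the threshold and the 3 with the largest absolute mean and one sign on all arrays. It also names the 5 genes nearest to atg14 over the arrays and 5 measured neighbours on each side. Alternatives were the reading by dye, each orientation alone, the blocked fits, scaled arrays, quantile normalization, single probes and each replicate alone.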

Additional observations from a re-analysis of the deposited data

How the results depend on the processing

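Of the 9 atg genes other than atg14, all kept their sign and none passed under forward arrays alone, dye swaps alone, either blocked fit, scaling or quantile normalization. Read by dye, atg12 (−0.29), atg13 (−0.16), atg3 (−0.15) and atg4a (−0.037) reversed and atg14 was at 0.41. With single probes, 1 of atg16l1 was at −0.068 and 1 of atg4b passed. By dye 2 atg genes passed, where 15.0% of all items did. With single probes 2 passed, where 2.48% of all probes did, and in the other settings tested 1 passed. atg14, whose ratio chose the family, was in each of these counts, so nothing is read from them. Over all items, 376 passed, against 1984 by dye, 617 with forward arrays, 243 after scaling and 114 with the replicate block and no dye term. With the replicate block and a dye term 401 passed. In the 6 autophagy and lysosome lists, 1 gene of 114 passed, where 2.84% of all items did, against 18 by dye, where 15.0% of all items passed. With forward arrays 5 passed in these lists, beside 617 of all 13261 items. With the replicate block and a dye term 2 passed, beside 401 of all items. With that block and no dye term 0 passed in the lists. With single probes, 6 probes of 5 genes passed in these lists, where 2.48% of all probes passed. The median of the 10 atg genes was 0.23, against −0.030 by dye, 0.12 with forward arrays, 0.33 with dye swaps, 0.29 after quantile normalization, and 0.089 to 0.13 with 1 replicate left out. The mean of atg14 was 2.43 to 3.66 with 1 replicate left out. With 1 replicate no test was made. The causes of these differences were not tested, and signal over background is unknown.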

Other observations

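In lgmn, fundc2 and galns, 1 probe passed and the other probes of the gene did not, where 2.48% of all probes passed. Differences between probes of a gene were not tested. These genes were named after their values were seen. lgmn, which encodes the lysosomal protease legumain, had 1 probe at 1.23 (limma adjusted p = 0.0055 with each probe tested by itself, n = 2) and positive on all 4 arrays, between 1.06 and 1.34, while its other probe was at 0.15. fundc2 had 1 probe at −1.1 (adjusted p = 0.0209 in the same limma fit), from −0.45 to −1.98 over the arrays, and 1 at 0.02. Of the 3 probes of galns, 1 was at 1.06 (limma adjusted p = 0.0306) and the others at 0.47 and 0.57.

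The 5 probes of psap, the gene of the lysosomal saposin precursor, all had means below 0. Their means were −0.38, −1.0, −0.75, −1.02 and −1.03, with 2 past the threshold as lower in NHA9 embryos in that fit (limma adjusted p of 0.042 and 0.038). Only the probe at −0.38 had a value above 0 on any array. Where in each transcript these probes lie was not analysed here.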
